A study of Mus musculus with 6 samples.

Results

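The 10 genes described here encode receptors for interleukin-1 (IL-1) and tumour necrosis factor (TNF), the IL-1 family ligands and antagonist that are read by those receptors or a related one, and feedback inhibitors of the transcription factor NF-kB. They are Il1r1, Il1rap, Tnfrsf1a, Tnfrsf1b, Il1b, Il18, Il1rn, Nfkbia, Nfkbiz and Tnfaip3. They were taken by gene symbol from the array annotation, with every probe set that names 1 gene only, which gave 25 of the 45037 probe sets (controls left out) and 10 of the 18193 genes that have such a probe set. A probe set is a group of short array probes for a single transcript or transcript group, and its value is an expression level on a log2 scale.

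The livers came from C57BL/6 mice whose Socs3 gene was floxed in all 6 cases. Cre plus livers (n = 3 arrays, named A, B and C) also carried Alb-Cre, a recombinase driven by the promoter of the albumin gene, so that Socs3 is deleted in hepatocytes and kept in other liver cells. Cre minus livers (n = 3 arrays, also A, B and C) came from littermates without the transgene. Livers regrowing after partial hepatectomy, an operation that removes most of the organ, were taken at 18 hours, and RNA was from whole liver. Age is not given in the labels, and they do not say whether each array is a separate mouse, so the p-values measure the spread between arrays. Where liver A, B or C is written below, the array of that letter is meant. No liver from before surgery and no Cre control without floxed Socs3 was used here, so an effect of Cre itself or of a difference present before surgery cannot be told apart from a response to surgery.

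IL-1 beta binds the receptor IL1R1, which then pairs with the accessory protein IL1RAP, and the IL-1 receptor antagonist occupies the same receptor without signalling. TNF binds TNFRSF1A, which most cells carry, and TNFRSF1B, which is mainly on immune and endothelial cells. Both receptor systems activate the IKK kinases, which release NF-kB from its inhibitors, and NF-kB then induces Nfkbia, Tnfaip3 and Nfkbiz, whose products limit or redirect its activity. In the liver TNF from Kupffer cells is part of the signal that primes hepatocytes to divide after partial hepatectomy, and Socs3 encodes the feedback inhibitor of the IL-6 and STAT3 branch of that signal.

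The arrays had the profile of liver, with the mean of 13 hepatocyte markers between 13.37 and 13.53 on the log2 scale. Socs3 itself had 24.9% of the Cre minus signal in Cre plus livers on its brightest probe set, with log2 values of 7.44, 6.69 and 7.47 in Cre plus livers A, B and C, against 9.09, 9.30 and 9.24 in Cre minus livers A, B and C. The groups did not overlap, and the log2 fold change was -2.01 ± 0.22 (limma's adjusted p = 0.0732, not under 0.05). A second kept probe set gave -1.60. Any 2 arrays correlated at 0.982 to 0.995 over the 8554 genes tested, which are not independent replicates. Log2 levels of different probe sets are not comparable with each other, so each gene is compared only with itself across the arrays.

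On their brightest probe sets, the receptor genes Il1r1, Tnfrsf1a and Tnfrsf1b had Cre plus values that all lay above the Cre minus values, at 1.24-fold to 1.77-fold the Cre minus level. For Tnfrsf1b this held on 1 of 2 kept probe sets, and its log2 fold change was 0.56 on that one and 0.31 for the mean of both. Il1b, Il1rn and Tnfaip3 were high in the Cre plus A liver alone. Nfkbiz was also highest there, though all its Cre plus values lay above its Cre minus values, and Nfkbia was high in Cre plus A and C. Il1rap had slightly lower values in Cre plus, and the groups overlapped for Il18. Of the 9 members that passed the filter on low values (a log2 value over 4 in at least 3 arrays), 7 had higher and 2 had lower values in Cre plus, where 46.5% of all genes tested were higher. On the brightest probe set all 9 exceeded that value in all 6 arrays, so none passed through the Cre plus arrays alone. Tnfaip3 missed the filter.

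No member passed limma's test at an adjusted p under 0.05 over all 8554 genes, where the share passing was 0.0234%. None of the 14 kept member probe sets passed over the 15563 kept probe sets either, where it was 0.0129%. By unadjusted limma p, 4 of the 9 members were under 0.05 and higher, against 6.62% of all genes, and 0 were under 0.05 and lower, against 8.21%. The Cre plus and Cre minus values did not overlap for 5 higher members, against 9.21% of all genes, and for 1 lower member, against 11.9%. The median log2 fold change of the 9 members was 0.51, and that of all genes was -0.0087. Without Cre plus A the median of the members was 0.24. In that fit the unadjusted p was under 0.05 with higher values for Il1r1, Tnfrsf1a, Tnfrsf1b and Nfkbiz, against 4.91% of all genes. These are not the 4 members of the fit with all arrays, which held Nfkbia in place of Nfkbiz. An exact permutation test of 3 arrays against 3 cannot give a two-sided p under 0.1.

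**Figure D1:**
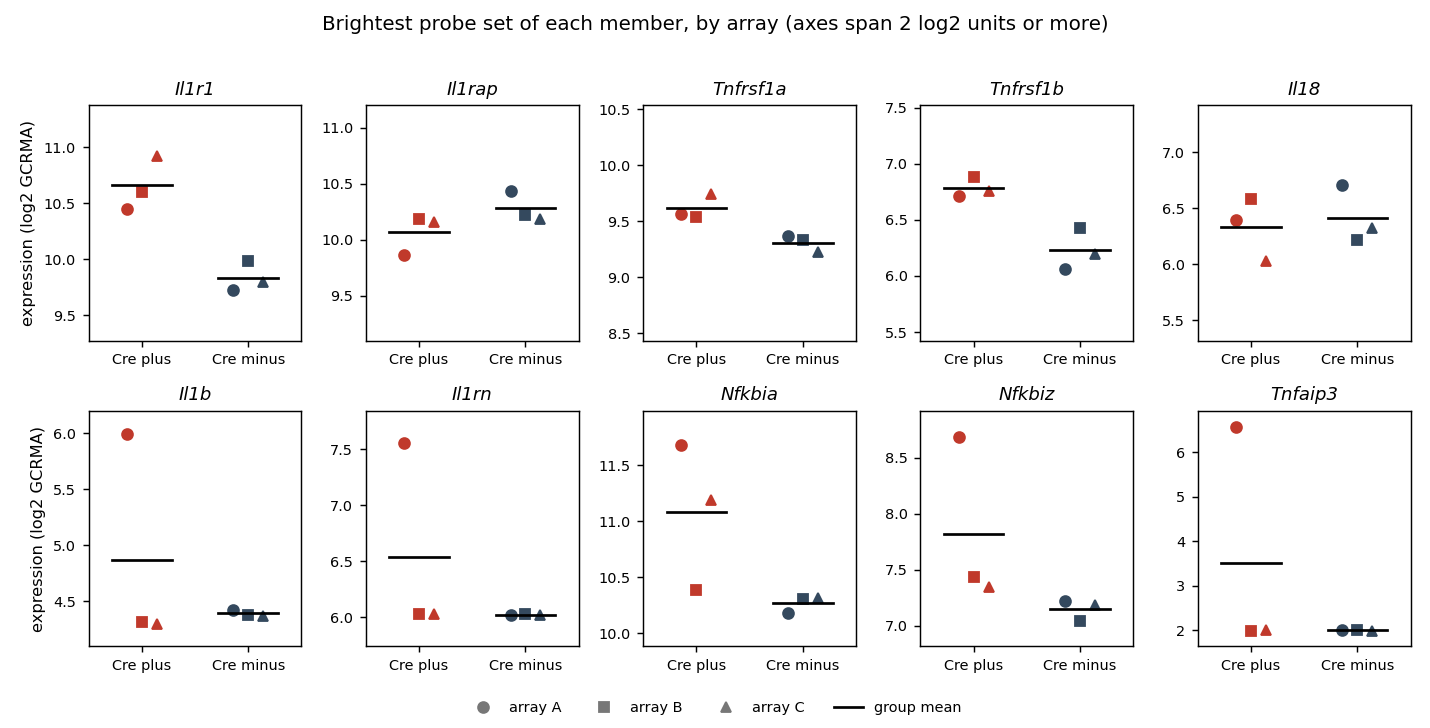
Expression (log2 GCRMA value, vertical axis) of the brightest probe set of each of the 10 members in the Cre plus and Cre minus arrays; circles, squares and triangles are arrays A, B and C and lines are group means. The Cre plus values of Il1r1, Tnfrsf1a and Tnfrsf1b lie above all Cre minus values, while Il1b, Il1rn and Tnfaip3 are high in Cre plus A only, with the other 5 arrays together.

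Il1r1, the signalling receptor for IL-1, was the member with the smallest p. Its log2 values were 10.45, 10.61 and 10.92 in Cre plus livers A, B and C, against 9.73, 9.98 and 9.80 in Cre minus livers A, B and C. The groups were apart by more than the spread within either, and Cre plus C was the highest. The log2 fold change was 0.82 ± 0.14 (SE, n = 3 each), which is 1.77-fold with a 95% interval of 1.40 to 2.24, and limma's adjusted p was 0.110. Leaving out Cre plus A gave 0.93 ± 0.13. A second Il1r1 probe set lay between 2.66 and 2.68 in all arrays, near the bottom of the scale, and carried no usable signal.

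Il1rap, the accessory chain that IL1R1 needs to signal, did not move with it. Its brightest probe set had 9.86, 10.18 and 10.16 in Cre plus livers A, B and C, against 10.44, 10.23 and 10.18 in Cre minus livers A, B and C. Every Cre plus value was below every Cre minus value, but the nearest pair, Cre plus B and Cre minus C, are both 10.18 when rounded. The log2 fold change was -0.21 ± 0.12, with limma's adjusted p = 0.450 and a 95% interval of -0.50 to 0.07. The other 4 Il1rap probe sets missed the filter.

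Tnfrsf1a, the TNF receptor that most cells carry, had 9.56, 9.53 and 9.74 in Cre plus livers A, B and C, against 9.36, 9.33 and 9.22 in Cre minus livers A, B and C. The difference was small but larger than the spread in either group, with SDs of 0.11 in Cre plus and 0.07 in Cre minus. The log2 fold change was 0.31 ± 0.08, or 1.24-fold with a 95% interval of 1.08 to 1.42, and limma's adjusted p was 0.200. It was read from a single probe set.

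Tnfrsf1b, the TNF receptor of immune and endothelial cells, gave a different answer on each of its 2 kept probe sets. On the brighter, the log2 values were 6.71, 6.88 and 6.76 in Cre plus livers A, B and C, against 6.06, 6.43 and 6.20 in Cre minus livers A, B and C, with no overlap. That is a log2 fold change of 0.56 ± 0.11, or 1.47-fold, and limma's adjusted p was 0.144. On the dimmer the values were 6.47, 6.61 and 6.24 in Cre plus livers A, B and C, against 6.33, 6.26 and 6.56 in Cre minus livers A, B and C. Here the groups overlapped, and the log2 fold change was 0.06 ± 0.13 (limma's adjusted p over the 15563 kept probe sets was 0.865). The mean of both probe sets gave 0.31 for the gene.

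The promoters of both TNF receptor genes, which had higher values on the brighter or only probe set, are shown as a description of the sequence. They are the 250 bases before and 50 bases after the annotated start, from RefSeq on GRCm38.p6, written 5′ to 3′ on the gene's strand. Capitals mark a match to TTCNNNGAA, the palindromic site that STAT proteins are known to bind.
Tnfrsf1a promoter, chr6:125349473-125349772, plus strand: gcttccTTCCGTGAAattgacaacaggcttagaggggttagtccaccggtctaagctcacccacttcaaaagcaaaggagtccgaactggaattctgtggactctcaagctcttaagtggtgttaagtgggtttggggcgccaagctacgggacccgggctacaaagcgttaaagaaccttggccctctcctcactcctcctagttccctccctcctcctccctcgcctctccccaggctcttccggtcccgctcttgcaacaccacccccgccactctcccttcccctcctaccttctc
Tnfrsf1b promoter, chr4:145246821-145247120, minus strand: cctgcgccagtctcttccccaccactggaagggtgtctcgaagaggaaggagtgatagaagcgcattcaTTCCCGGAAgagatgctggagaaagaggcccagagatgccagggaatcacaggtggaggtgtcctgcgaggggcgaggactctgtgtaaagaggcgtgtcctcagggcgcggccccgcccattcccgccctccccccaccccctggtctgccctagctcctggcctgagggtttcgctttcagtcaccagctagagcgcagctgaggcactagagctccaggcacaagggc
The Tnfrsf1a match begins 244 bases before the annotated start and the Tnfrsf1b match begins 181 bases before it. RefSeq promoters were given for 9 of the 10 members (13 starts in all, none for Nfkbiz), and only these 2 starts held TTCNNNGAA. Both starts of Il1r1, the receptor gene with the largest log2 fold change (0.82), held none and are not printed. A link between the match and higher values was not tested. The same letters occur in 8.30% of all 32851 promoters of this length. A match is a string of letters and not a shown binding site.

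Il1b encodes IL-1 beta, the inducible IL-1 ligand made mainly by macrophages and other myeloid cells. It had 6.00 in Cre plus A, against 4.31 and 4.30 in Cre plus B and C and 4.42, 4.38 and 4.37 in Cre minus livers A, B and C. The Cre plus A value stood 1.57 above the highest of the other 5 arrays, which lay within 0.13 of each other. Over all 6 arrays the log2 fold change was 0.48 ± 0.47 (limma's adjusted p = 0.668). Without Cre plus A it was -0.086 ± 0.05, so the sign for the group rests on a single array.

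Il1rn encodes the IL-1 receptor antagonist, which also is made by hepatocytes as an acute phase protein. On its brightest probe set it had 7.56 in Cre plus A, against 6.03 and 6.02 in Cre plus B and C and 6.02, 6.03 and 6.02 in Cre minus livers A, B and C. The other 5 arrays differed by 0.0071 at most. Only 0.772% of the genes tested had a smaller range over the same 5 arrays, and the median range was 0.35. GCRMA is known to give nearly equal values to a probe set whose signal is not above its modelled background.

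Both other Il1rn probe sets had the same shape. On the first the value was 7.30 in Cre plus A, against 2.73 to 2.75 in the other 5 arrays. On the second it was 5.89 in Cre plus A, against 2.60 to 2.62 in the others. These 2 probe sets missed the filter because a single array passed it. The kept probe set gave a log2 fold change of 0.51 ± 0.42 (limma's adjusted p = 0.608), and 0.0033 ± 0.05 without Cre plus A.

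Il18 encodes a cytokine of the IL-1 family that has its own receptor and is released by Kupffer cells. It had 6.40, 6.58 and 6.03 in Cre plus livers A, B and C, against 6.71, 6.22 and 6.32 in Cre minus livers A, B and C. The groups overlapped, the log2 fold change was -0.08 ± 0.19, and the 95% interval ran from -0.54 to 0.38. Cre plus A was not high here.

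Nfkbia encodes the inhibitor IkB alpha, which NF-kB induces and which returns it to the cytoplasm. On the brightest probe set it had 11.68, 10.38 and 11.19 in Cre plus livers A, B and C, against 10.18, 10.30 and 10.32 in Cre minus livers A, B and C. Cre plus A and C were well above the Cre minus arrays, and Cre plus B was only just above them. The log2 fold change was 0.82 ± 0.32, or 1.76-fold with a 95% interval of 1.03 to 3.03 (limma's adjusted p = 0.319). Leaving out Cre plus A gave 0.52 ± 0.25 (limma's adjusted p = 0.496). Leaving out Cre plus B gave 1.17 ± 0.16 (limma's adjusted p = 0.0674).

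The other 3 kept Nfkbia probe sets repeated this order. Their log2 fold changes were 0.58, 0.67 and 0.66, and Cre plus A was the highest and Cre plus C the next on each. Cre plus B lay within the Cre minus range on all 3, at 10.22, 8.38 and 7.38, so the groups overlapped there. The separation of the groups for Nfkbia is thus a property of 1 probe set of 4, while the high values in Cre plus A and C were on all 4.

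Nfkbiz encodes IkB zeta, a nuclear cofactor that IL-1 induces and that NF-kB needs at some of its targets. It had 8.69, 7.43 and 7.35 in Cre plus livers A, B and C, against 7.22, 7.04 and 7.18 in Cre minus livers A, B and C. All Cre plus values were above all Cre minus values, and Cre plus A stood 1.26 above the next highest array. The log2 fold change was 0.67 ± 0.36 (limma's adjusted p = 0.446), and 0.24 ± 0.08 without Cre plus A (adjusted p = 0.376). A dimmer kept probe set gave 0.35 ± 0.12 with the groups apart by little, at 4.51, 4.15 and 4.43 in Cre plus livers A, B and C, against 4.14, 3.92 and 3.97 in Cre minus livers A, B and C. Of its Cre minus arrays only A was over the filter value of 4. This probe set was thus kept through its Cre plus arrays, and it is no independent support for a group difference.

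Tnfaip3 encodes a ubiquitin-editing enzyme that shuts off TNF and IL-1 signalling upstream of IKK. Its brighter probe set had 6.58 in Cre plus A, against 2.00 in each of the other 5 arrays. The gap to the highest of the others was 4.57 on the log2 scale. The dimmer probe set had 2.70 in Cre plus A, against 2.11 to 2.12 in the others. With 1 array over the filter it was not tested, and no group difference can be read from it. By mean value alone, 8 of all 10 members were higher in Cre plus with Tnfaip3 counted, but its mean rests on Cre plus A. Over all 18193 genes with no filter the median log2 fold change was -0.0074, and the share of higher genes was not computed.

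**Figure D2:**
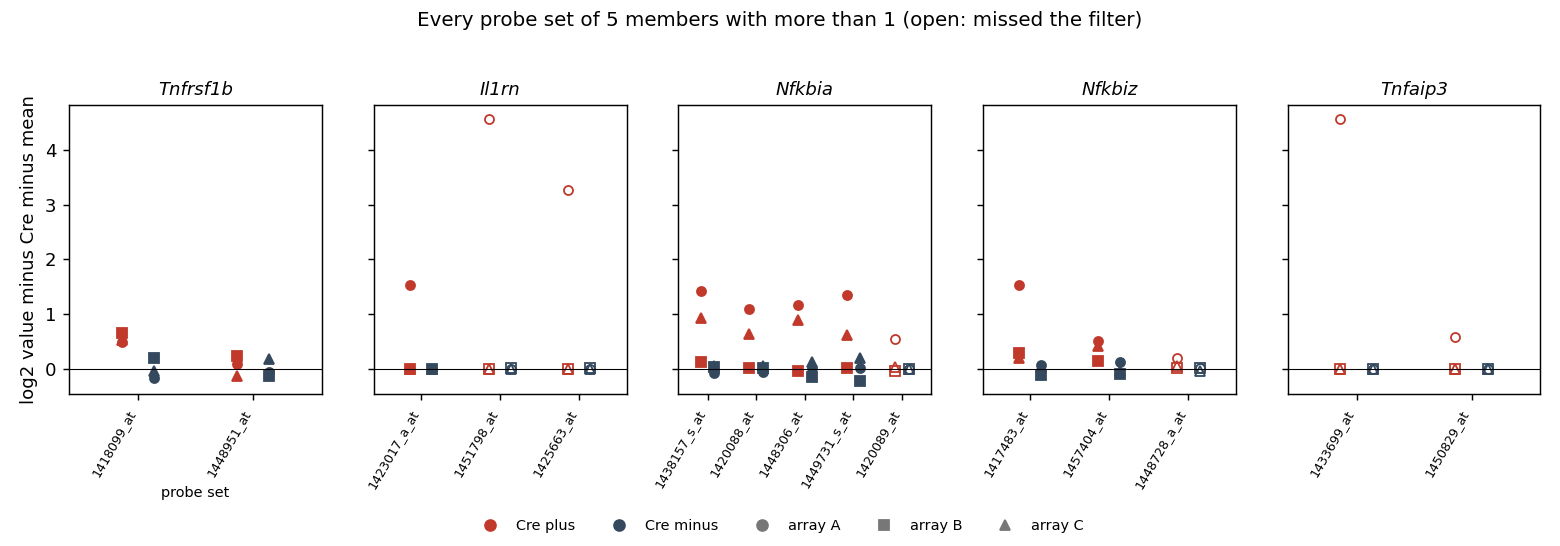
Log2 value minus the Cre minus mean (vertical axis) for every probe set of 5 members, with Cre plus in red, Cre minus in dark blue, circles, squares and triangles for arrays A, B and C, and open symbols for probe sets that missed the filter. Cre plus A is the highest array on every probe set of Il1rn, Nfkbia, Nfkbiz and Tnfaip3, up to 4.57 above the others, and the Tnfrsf1b probe sets differ from each other.

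The promoters of Nfkbia and Tnfaip3, feedback genes that are textbook NF-kB targets, are shown as a description of the sequence. The source, window and build are as above. Capitals mark matches, on either strand, to GGGRNNYYCC, the kB consensus bound by NF-kB. In it R is A or G, Y is C or T and N is any base.
Nfkbia promoter, chr12:55492598-55492897, minus strand: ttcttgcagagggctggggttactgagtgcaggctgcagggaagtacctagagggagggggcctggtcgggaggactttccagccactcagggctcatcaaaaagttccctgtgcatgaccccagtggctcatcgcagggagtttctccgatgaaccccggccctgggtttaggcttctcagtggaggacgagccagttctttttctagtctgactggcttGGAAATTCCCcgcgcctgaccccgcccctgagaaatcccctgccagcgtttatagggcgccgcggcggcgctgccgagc
Tnfaip3 promoter, chr10:19015361-19015660, minus strand: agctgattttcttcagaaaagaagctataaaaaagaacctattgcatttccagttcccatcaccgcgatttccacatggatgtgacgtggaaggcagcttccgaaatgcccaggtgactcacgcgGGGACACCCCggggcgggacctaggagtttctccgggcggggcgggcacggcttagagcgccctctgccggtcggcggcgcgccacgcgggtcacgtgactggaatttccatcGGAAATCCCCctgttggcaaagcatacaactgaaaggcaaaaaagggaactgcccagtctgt
The Nfkbia match begins 29 bases before the annotated start. The printed Tnfaip3 promoter holds 2 matches, beginning 125 and 12 bases before the start, and the first of them matches on both strands. A second annotated Tnfaip3 start held none and is not printed. Of the 13 member starts, 3 held a match, the other being a second Il1r1 start with one 232 bases before it. The share among all promoters of this length was 8.46%, and no kB match overlapped a TTCNNNGAA match in the members. The windows of Il1b and Il1rn held no match, which says only that these letters are not in them. A link between a kB match and the values in any array was not tested. Here too a match is a string of letters and not a shown binding site.

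The arrays were also taken one at a time. Relative to the Cre minus mean, the median over the 9 members tested was 0.62 on the log2 scale for liver A of Cre plus, with 0.17 for liver B and 0.20 for liver C. Cre plus A was the highest Cre plus liver for 4 members, Il1b, Il1rn, Nfkbia and Nfkbiz, and the lowest for Il1r1, Il1rap and Tnfrsf1b. The SD was larger in Cre plus than in Cre minus for 8 of the 9 members, as for 63.1% of all genes tested.

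Genes at least 1 log2 unit higher in Cre plus A than in every other array made up 0.339% of the 8554 genes tested, or 29 genes, and Il1b, Il1rn and Nfkbiz were 3 of these. Cre plus C stood above every other array by that step for 32 genes, or 0.374%, none of them a member, and each of the other 4 arrays did so for 0 to 2 genes. Over all 18193 genes read from their brightest probe set without a filter, the share for Cre plus A was 0.242%, and 4 of the 10 members were among them with Tnfaip3. These counts describe single arrays and not the Cre plus group.

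Markers of other cells were set beside these values. The neutrophil and monocyte list had 3 of 16 genes tested, S100a8, S100a9 and Ccr2, and its summed level on the log2 scale was 10.80, 9.19 and 9.45 in Cre plus livers A, B and C, against 9.38 to 9.43 in Cre minus. S100a8, which neutrophils carry in large amounts, had 10.10 in Cre plus A, against 8.19 to 8.54 in the other 5 arrays. Ccr2 did not follow, at 6.47 in Cre plus A and 6.43 to 6.58 in the others. The 10 listed markers below the filter, among them Mpo, Elane, Csf3r and Cxcr2, were between 2.05 and 3.59, near the bottom of the scale, and the highest of these was Ngp at 3.59 in Cre plus A, against 2.46 to 2.47 in the others. The part of these cells in the high Il1b, Il1rn, Nfkbiz and Tnfaip3 values was not tested.

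Kupffer cell and macrophage markers were lower in Cre plus, 16 of 17 by value and 8 at an unadjusted p under 0.05, against 8.21% of all genes, with a median log2 fold change of -0.30. The exception was Mpeg1, a macrophage pore-forming protein, at 0.42 ± 0.14 (limma's unadjusted p = 0.026, adjusted p = 0.276). It thus passed the same unadjusted threshold in the other direction. Their summed level was 12.49, 12.44 and 12.29 in Cre plus livers A, B and C, against 12.60 to 12.68 in Cre minus. Sinusoidal endothelial markers were lower for 12 of 14, with a median of -0.24. The higher Tnfrsf1b value on 1 probe set was thus measured beside lower values of markers of the cells known to carry it, and their part in it was not tested. In whole liver, fewer cells of a type and less RNA per cell cannot be told apart. None of the 13 lymphocyte markers with a probe set passed the filter, and of the cholangiocyte markers only Sox9 did.

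**Figure D3:**
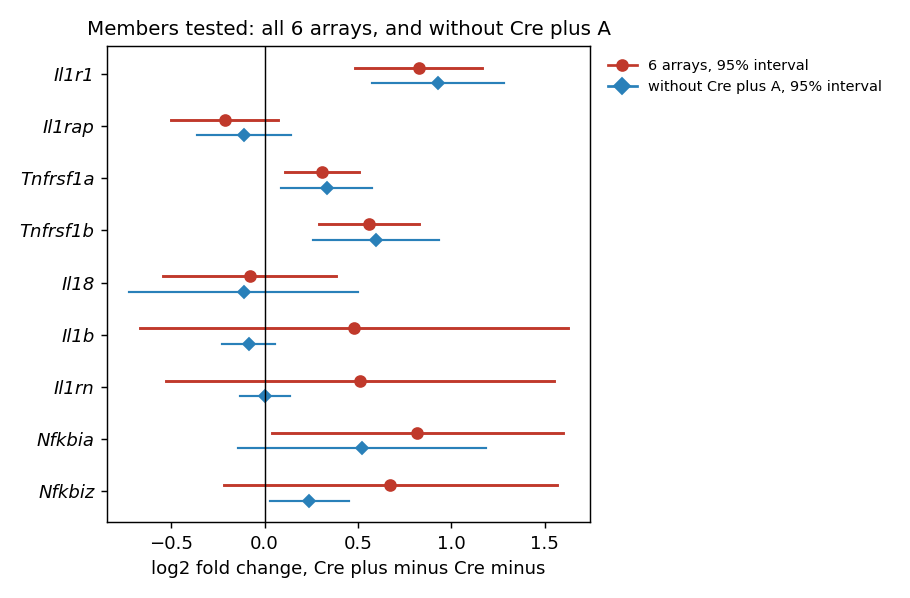
Log2 fold change, Cre plus minus Cre minus (horizontal axis), of the 9 members tested, with all 6 arrays (circles) and without Cre plus A (diamonds); bars are limma's 95% intervals. Il1r1, Tnfrsf1a and Tnfrsf1b keep their values without Cre plus A, at 0.93, 0.33 and 0.60, while Il1b and Il1rn are at -0.086 and 0.0033.

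Likeness to other genes was measured as the root mean square distance between log2 profiles over the 6 arrays, each centred on its own mean, for the 5 members that spanned at least 1 log2 unit. Nearest to Il1r1 were Slc39a14, a zinc and iron transporter, at a distance of 0.10, then Tle3, a corepressor, at 0.10, and the metallothionein Mt2 at 0.11. Slc39a14 had 10.58, 10.64 and 10.87 in Cre plus livers A, B and C, against 9.94, 9.94 and 9.78 in Cre minus livers A, B and C, so it too was highest in Cre plus C. Nearest to Nfkbia were Serpinb9, a granzyme inhibitor, at 0.10, Gadd45a, a stress response gene, at 0.10 and Chac1, which degrades glutathione, at 0.12. All 3 had their highest values in Cre plus A and C. Neighbours, here and below, were picked from the genes tested by their distance over these same 6 arrays. A shared order of the arrays thus follows from the choice and is no separate result.

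For Il1b and Il1rn the distance is set by the 1 high value in Cre plus A, since the other 5 arrays were nearly level, and it carries no further likeness. S100a9 was at 0.12 from Il1b and 0.10 from Il1rn, S100a8 was at 0.11 from Il1b, and Gm6958 was at 0.08 from Il1b and 0.03 from Il1rn. Gm9706 was at 0.08 from Il1rn and 0.09 from Nfkbiz. Nfkbiz was also near Gm6958 at 0.13 and Oas1a, an interferon-stimulated antiviral gene, at 0.16. All of these neighbours were highest in Cre plus A, and the profiles share the 6 arrays.

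The other genes of the pathway came from 6 lists with 107 genes, of which 98 had a probe set naming them alone and 60 were tested. Values were higher in Cre plus for 42 of these and lower for 18, and the median log2 fold change was 0.09. Tifa alone passed limma's adjusted threshold. By unadjusted limma p under 0.05, the count was 13 higher and 1 lower of 60, where the shares over all genes were 6.62% and 8.21%. The groups did not overlap for 15 higher and 1 lower, against 9.21% and 11.9% of all genes. Without Cre plus A the count by unadjusted p was 8 higher and 2 lower, against 4.91% and 6.91% of all genes. The groups then did not overlap for 22 higher and 3 lower, against 12.5% and 16.7%. The counts of the single lists below are to be read against the same 6.62% and 8.21%.

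In the relay below the IL-1 receptor, 8 of 13 genes had higher values, with an unadjusted p under 0.05 for 3 of these and for 1 lower gene. Tifa, an adaptor that activates TRAF6, rose to 10.80, 10.62 and 10.52 in Cre plus livers A, B and C, against 8.66, 8.73 and 8.76 in Cre minus livers A, B and C (limma's adjusted p = 0.00516). Myd88, the adaptor that IL1R1 recruits, had a log2 fold change of 0.28 ± 0.07, and Tab2, which couples TRAF6 to the kinase TAK1, had 0.25 ± 0.06. The ubiquitin ligase gene Peli2 had -0.37 ± 0.10. The relay was thus not uniform, and the kinase gene Irak1 had 9.24 in Cre plus and 9.25 in Cre minus on average.

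Of the remaining IL-1 family genes only 3 were tested. Il33, an alarmin of the IL-1 family, had 7.51, 4.33 and 6.10 in Cre plus livers A, B and C, against 3.77, 4.35 and 3.84 in Cre minus livers A, B and C. Its high livers were Cre plus A and C, as for Nfkbia, and Cre plus B was at the Cre minus level. The log2 fold change was 1.99 ± 0.77 (limma's adjusted p = 0.319). Of the Cre minus arrays only B was over the filter value of 4, so Il33 was tested through its Cre plus arrays. It is among the higher pathway genes counted above at an unadjusted p under 0.05, and that count carries this limit. Sigirr, an inhibitory receptor of the family, had -0.31 ± 0.14. Il1a and the decoy receptor Il1r2 missed the filter, at 3.30 to 3.40 and 3.36 to 3.50.

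In the TNF list an unadjusted p under 0.05 was found for 1 of 15 genes, which was higher, a share near the 6.62% of all genes. That gene was Birc2, a ubiquitin ligase of the TNF receptor complex, at 0.28 ± 0.11, and Adam17, the protease that releases TNF, had 0.26 ± 0.11. Tnf itself averaged 5.57 in Cre plus and 5.62 in Cre minus, a log2 fold change of -0.05 ± 0.06 with a 95% interval of -0.20 to 0.10.

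Among IKK and NF-kB subunits, only 5 of 11 listed genes were tested, and Rela was the only NF-kB subunit among them. An unadjusted p under 0.05 with higher values was found for 2 of the 5. Rela, the main transactivating subunit, had 0.30 ± 0.09 and the kinase gene Tbk1 had 0.32 ± 0.07, and the median of the list was -0.0032. Of the 14 other feedback and IkB genes tested, 11 had raised and 3 had reduced Cre plus values. Limma's unadjusted threshold of 0.05 was passed by 3 of the raised genes and by 0 of the reduced ones. Bcl3, a nuclear IkB protein, had 0.43 ± 0.10 and was highest in Cre plus B at 9.68. Zfp36, which destabilises cytokine mRNAs, had 9.27, 8.26 and 9.18 in Cre plus livers A, B and C, against 7.99, 8.05 and 7.86 in Cre minus livers A, B and C. The third was Tank, a TRAF-binding adaptor, at 0.28 ± 0.09.

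Of the 22 listed NF-kB target genes of inflammation only 10 were tested. By value 8 of these 10 were higher, 3 of them at an unadjusted p under 0.05, with a median of 0.33. The smallest log2 fold change among the 8 was 0.013. The listed genes with a probe set that were not tested lay between 2.08 and 3.31 in all arrays, apart from Cxcl2, which is given below. The neutrophil chemokine Cxcl1 had 12.46, 11.89 and 11.70 in Cre plus livers A, B and C, against 10.99, 11.10 and 10.75 in Cre minus livers A, B and C. Icam1, an adhesion molecule, had 0.48 ± 0.12. Ier3, an early response gene, had 10.59, 6.11 and 9.64 in Cre plus livers A, B and C, against 5.03, 5.11 and 5.48 in Cre minus livers A, B and C. Cxcl1 and Icam1 were thus higher in every Cre plus liver, and Ier3 mainly in Cre plus A and C.

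Of the 38 pathway genes with a probe set that were not tested, 1 had the shape of Tnfaip3. It was Cxcl2, a neutrophil chemokine that macrophages release, at 7.28 in Cre plus A and 2.57 to 2.58 in the other 5 arrays, and it was chosen after its values were seen. Il6 stayed between 2.21 and 2.23 in all arrays, near the bottom of the scale.

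**Figure D4:**
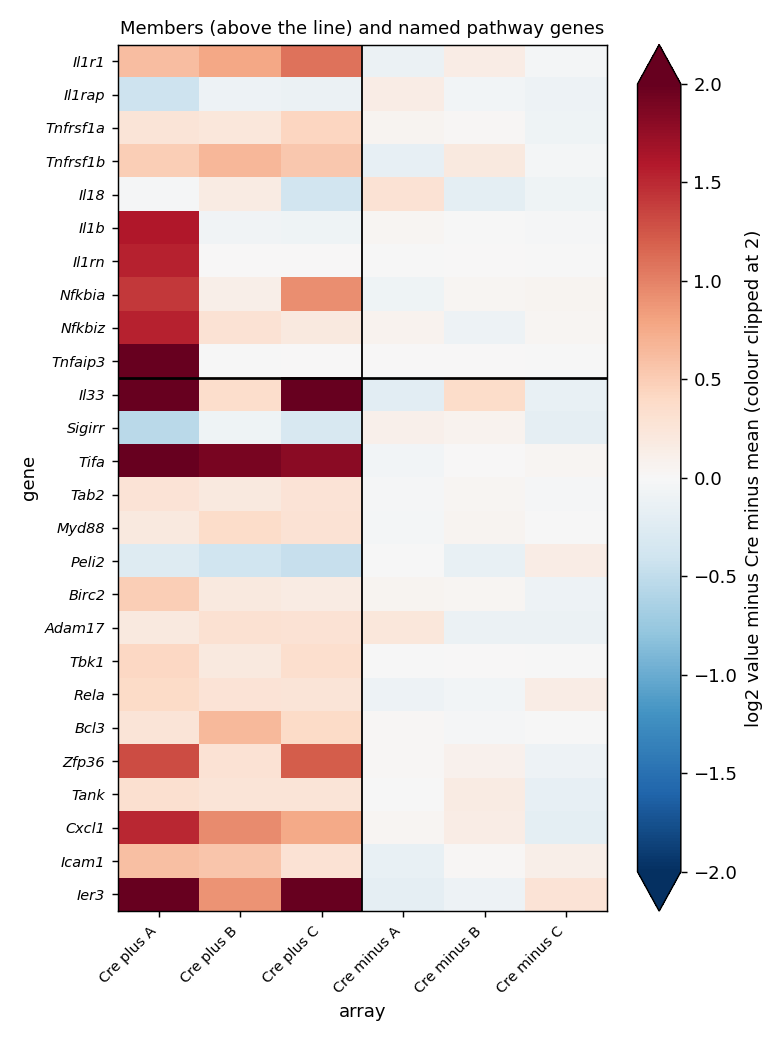
Log2 value minus the Cre minus mean (colour, clipped at 2) of the 10 members above the line and the named pathway genes below it, with arrays as columns and Cre plus on the left. Il1r1, Tnfrsf1a, Tnfrsf1b, Tifa, Cxcl1 and Icam1 are higher in all 3 Cre plus arrays, Nfkbia, Il33, Zfp36 and Ier3 mainly in A and C, and Il1b, Il1rn, Nfkbiz and Tnfaip3 mainly in A.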

How the data were processed

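Whole liver RNA, 2 ug of it per array, was hybridised to Affymetrix mouse genome arrays, per the labels. The deposited values are log2 expression values that the authors made with GCRMA, per the submitters' processing notes. Its version was not given in the sources used here, and the log2 scale was read from the values. GCRMA subtracts a background modelled from probe sequence, so probe sets without signal take nearly constant values and low folds are compressed. The number of arrays limits the precision.

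Affymetrix control probe sets were left out, which left 45037. By the platform annotation 34945 had 1 gene symbol, 932 several and 9160 none. Entrez IDs of 34741 matched RefSeq genes of GRCm38.p6, and 0 symbols differed. Probe sets over 4 in at least 3 of 6 arrays were kept (15563), and a gene was read from its kept probe set with the highest mean (8554 genes). Group differences (Cre plus minus Cre minus) were fitted with limma 3.58.1 in R 4.3.3 (lmFit, eBayes, no block, two-sided, Benjamini-Hochberg adjustment over all genes or all kept probe sets). On 20 simulated sets of the same 8554 genes for Cre plus against Cre minus, 41.9%, 79.6% and 96.0% of changes of 0.5, 1 and 2 on the log2 scale were recovered. Each set had 200 changed genes and normal noise of equal spread in both groups, with the variances shuffled over genes. In the data the SD was larger in Cre plus for 63.1% of genes, so these shares do not give the recovery here. Socs3, with a log2 fold change of -2.01, did not pass (limma's adjusted p = 0.0732).

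Besides the members, the text names up to 4 genes per pathway list with an unadjusted p under 0.05 and no overlap (filled to 2 by smallest p), up to 2 per marker list, and the 3 nearest profiles of each member spanning 1 log2 unit. Irak1, Tnf, Il1a, Il1r2, Il6, Cxcl2, Ccr2, Ngp, Mpeg1 and the neutrophil markers listed below the filter fall outside this rule and were picked with their values in view. The members, lists and rules were chosen with earlier results of these data known. Alternatives are given in the closing section.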

Additional observations from a re-analysis of the deposited data

How the results depend on the processing

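Results were recomputed under 15 alternatives: another scaling, normalization, filter, variance prior, array weights or choice of probe sets, a replicate block, and each array left out. No member passed an adjusted p under 0.05 in any of them (limma, smallest 0.0523), and no member probe set did in the 13 that apply to probe sets. At an unadjusted limma p under 0.05, a count added after seeing the data, 3 or 4 members were listed in each. The share of all genes was 6.62% higher and 8.21% lower in the main fit. Without Cre plus A it was 4.91% and 6.91%. It was not computed for the other alternatives, so their member counts cannot be set against it. Of 134 member values, 131 kept their direction. Il1b was -0.086 without Cre plus A. Il18 was 0.075 when Cre plus C was left out and 0.065 when Cre minus A was, with a range of -0.20 to 0.075 over single arrays left out. The median of the members lay between 0.24, with Cre plus A left out, and 0.76, with Cre plus B left out, when 1 array was left out.

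Over all genes the count past the threshold was 2. It was 0 with no filter, 56 with a stricter filter (log2 over 6), and 0 to 13 when 1 array was left out (13 for Cre plus B, 1 for Cre plus A and 0 for each Cre minus array). The replicate block by letter gave 0, and limma's adjusted p of Il1r1 was 0.252 in it, against 0.110 in the main fit. The labels do not say whether the letters pair the arrays, so which fit is the better one cannot be told. Deviations of same-letter arrays from their group means correlated at -0.15, -0.10 and 0.02 for A, B and C. No Cre plus array correlated best with the Cre minus array of its own letter. Il1b, Il1rn and Tnfaip3 are limited by signal near background in 5 of 6 arrays.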
